A study of Mus musculus with 9 samples.

Results

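The cluster of miR-183, miR-96 and miR-182 is a set of 3 neighbouring microRNA genes, and its guide strands mmu-miR-183-5p, mmu-miR-96-5p and mmu-miR-182-5p (mmu for mouse, left out from here on) were followed in small RNA from exosomes, the vesicles that cells shed into their medium. The 3 were chosen by name among the rows for mature miRNAs and make up 3 of the 1101 mature miRNAs listed in at least 1 library. The vesicles came from RAW264.7, a transformed mouse macrophage line grown with fetal bovine serum, and were collected by ultracentrifugation. The 9 libraries fall into 3 groups of 3: cells given silica for 48 h, cells given silica for 24 h, and untreated cells. Silica is the mineral dust behind silicosis, and neither its dose nor the culture time of the untreated cells is stated in the sources used here. Libraries of a group are described as independently repeated, but whether they are separate cultures is not said, so p-values measure only the spread between these libraries.

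MicroRNAs are cut as a short duplex from a hairpin in a longer transcript. The guide strand is loaded into Argonaute and pairs with messenger RNAs mainly through its seed, bases 2 to 8 from the 5′ end, while the opposite strand is mostly discarded. The 3 hairpins of this cluster are transcribed together, and in mouse they are best known from sensory organs such as the retina and the hair cells of the inner ear, where seed mutations of miR-96 cause hearing loss. miR-182 is also induced in activated T cells of the mouse, where it represses Foxo1, and all 3 are found in epithelial cells.

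The 3 guide strands are shown first because their seeds are nearly alike, though not identical. The sequences are RefSeq's for GRCm38.p6, written 5′ to 3′ with the seed in capitals.
miR-183-5p: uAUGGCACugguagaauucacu
miR-96-5p: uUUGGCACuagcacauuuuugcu
miR-182-5p: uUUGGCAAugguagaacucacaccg
Counting from the 5′ end, the seeds of miR-96-5p and miR-182-5p differ by C8A, those of miR-183-5p and miR-96-5p by A2U, and those of miR-183-5p and miR-182-5p by both A2U and C8A. Over the first 22 positions, seed included, the likeness is different. There miR-183-5p and miR-182-5p have the same base at 18 of 22 and share the run UGGUAGAA, whereas miR-183-5p and miR-96-5p match at 13 of 22. Among 1679 mature mouse miRNAs in the table, miR-1271-5p is the only other one that has bases 2 to 7 of miR-96-5p and miR-182-5p, and it was listed in 0 of the 9 libraries. No other miRNA there has bases 2 to 7 of miR-183-5p.

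The hairpins are shown with the guide strand in capitals, to place both arms. All lie on the minus strand of chromosome 6 (GRCm38, the assembly behind mm10), in the order miR-183, miR-96, miR-182 along the transcript.
Mir183, chr6:30169668-30169737: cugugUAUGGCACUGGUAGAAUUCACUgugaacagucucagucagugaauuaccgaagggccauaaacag
Mir96, chr6:30169446-30169551: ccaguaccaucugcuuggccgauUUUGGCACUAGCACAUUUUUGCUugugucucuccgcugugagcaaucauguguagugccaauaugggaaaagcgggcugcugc
Mir182, chr6:30165918-30165992: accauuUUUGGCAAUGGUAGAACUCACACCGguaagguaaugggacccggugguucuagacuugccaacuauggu
The gap between the hairpins of miR-183 and miR-96 is 116 bases and that between miR-96 and miR-182 is 3453 bases. In GENCODE M21 no other gene overlaps this span, which lies between Nrf1 and Ube2h. In RefSeq the non-coding RNA gene Mirc35hg, at chromosome 6 30158640 to 30174125, covers all 3 hairpins.

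A library had 2158418 to 8331451 counts of mature miRNA, which made up 28.01% to 44.66% of all its counted reads. Levels are given as CPM, mature counts scaled to a library total of 1000000 after TMM scaling, a factor for differences in composition between libraries. A single read spans most of a mature miRNA, so no length correction was made. Such a level is a share of the vesicles' miRNA, so it shows neither the number of vesicles nor the amount of RNA in each. The 48 h library 2 was closer to the untreated library 2 than any other library was to another (r = 0.969 across tested miRNAs), and both were left out together as an alternative. Of 8 markers of macrophages and other myeloid cells, 8 were listed and 7 had enough counts to be tested; miR-146a-5p averaged 49713 CPM over the 9 libraries, miR-21a-5p 37924 CPM and miR-155-5p 800 CPM, while miR-223-3p averaged 126 CPM, miR-142a-3p 74.2 CPM and miR-511-3p, listed in 4 libraries, 0.498 CPM.

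All 3 guide strands were counted in every library. Together they took 0.849% ± 0.22 of mature counts at 48 h, 0.857% ± 0.109 at 24 h and 0.828% ± 0.211 in untreated (SD, n = 3 each). miR-183-5p was the most abundant of the 3 in 9 of 9 libraries, with a mean of 6286 CPM over all of them, which put it at rank 32 of the 1101 miRNAs. miR-96-5p and miR-182-5p followed at 1212 and 1026 CPM, at ranks 52 and 56. The order of these last 2 was not fixed: miR-182-5p stood above miR-96-5p in 3 libraries, which were library 2 of each group, and below it in the other 6.

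miR-183-5p had 5883, 3576 and 8886 CPM at 48 h, 8169, 5160 and 7429 CPM at 24 h, and 7202, 2636 and 7635 CPM in untreated, in libraries 1, 2 and 3. The groups overlapped throughout, and library 2 was the lowest of its group in all 3 groups. The means were 6115 ± 2663 CPM at 48 h, 6920 ± 1568 CPM at 24 h and 5824 ± 2770 CPM in untreated (SD, n = 3).

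miR-96-5p had 1261, 1371 and 1509 CPM at 48 h, 1099, 796 and 784 CPM at 24 h, and 1153, 1127 and 1808 CPM in untreated. All 24 h libraries lay below all 48 h libraries and below all untreated ones, while the 48 h and untreated libraries overlapped. The gap to the nearest untreated library was small, between 1099 CPM in the 24 h library 1 and 1127 CPM in the untreated library 2.

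miR-182-5p had 1133, 1695 and 703 CPM at 48 h, 924, 1049 and 700 CPM at 24 h, and 887, 1405 and 741 CPM in untreated. Here the groups overlapped, and library 2 was the highest of each group, the reverse of miR-183-5p.

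**Figure D1:**
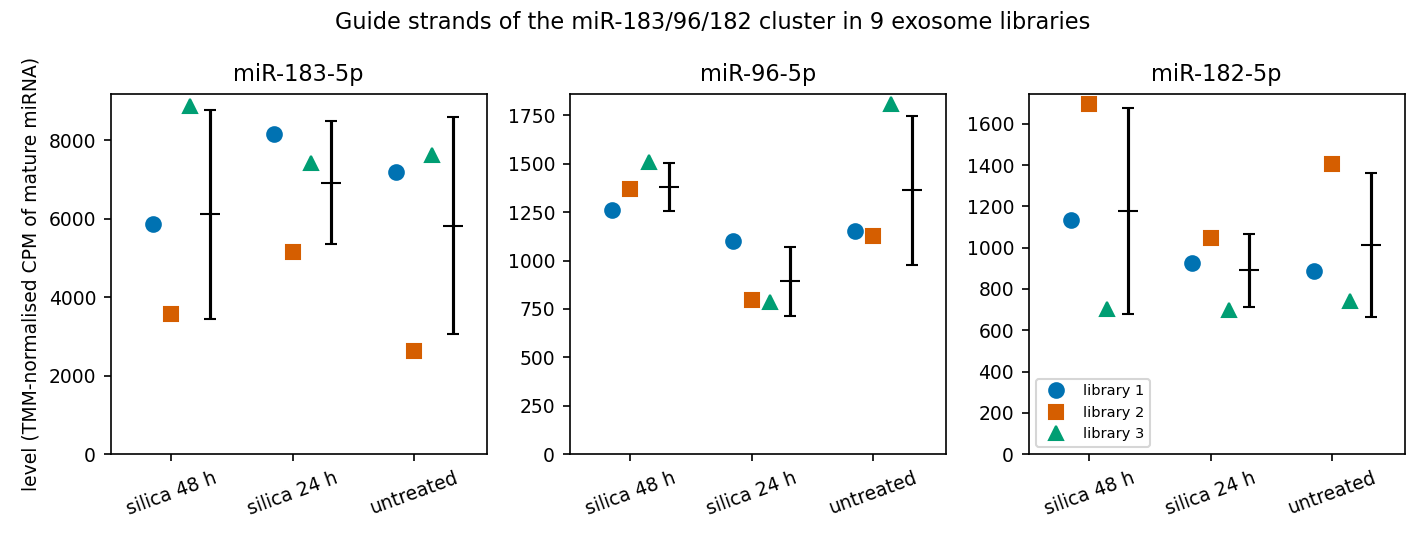
Level of each guide strand (TMM-normalised CPM of mature miRNA, linear axis from 0) in the 9 libraries; each point is a library, its colour and shape give the library number, and the black bar is the group mean ± SD (n = 3). For miR-96-5p the 24 h libraries, at 784 to 1099 CPM, all lie below the other 6, and library 2 is the lowest of each group for miR-183-5p and the highest for miR-182-5p.

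Setting 48 h of silica against no silica asks whether the longer exposure changed the vesicle content. Of the 3 guide strands 0 passed edgeR's quasi-likelihood test at a Benjamini-Hochberg adjusted p of 0.05, as did 0 of all 453 tested miRNAs (0%); 4 miRNAs (0.883%) had an unadjusted p under 0.05, and DESeq2 called 1. The groups of 0 of the 3 were separate, that is, without overlap between libraries, which held for 2.21% of tested miRNAs with 48 h higher and for 1.55% with 48 h lower. The log2 fold change, 48 h over untreated, was 0.07 for miR-183-5p (95% interval -1.03 to 1.17), 0.02 for miR-96-5p (-0.96 to 1.00) and 0.22 for miR-182-5p (-0.89 to 1.33), each with an edgeR adjusted p of 0.997. As folds these intervals run from 0.488 to 2.26 for miR-183-5p, from 0.513 to 2 for miR-96-5p and from 0.538 to 2.52 for miR-182-5p. Changes within these limits are compatible with the data, and the limits do not tell which changes were detectable. The sign of each value turned when single libraries were left out.

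Setting 24 h of silica against no silica asks the same of the shorter exposure. miR-96-5p averaged 893 ± 178 CPM at 24 h and 1363 ± 386 CPM in untreated (SD, n = 3), a log2 fold change of -0.61 ± 0.45 (SE; fold 0.655, 95% interval 0.331 to 1.3) that did not pass (edgeR adjusted p = 0.654, Benjamini-Hochberg). It was lower in 3 of 3 libraries with separate groups, which held for 6.18% of the 453 miRNAs in that direction. miR-183-5p stood at 0.25 on the log2 scale (-0.86 to 1.35; edgeR adjusted p = 0.887) and miR-182-5p at -0.18 (-1.30 to 0.93; 0.912), and both signs turned without the untreated library 2. Over all tested miRNAs edgeR called 0 (0%), with 46 (10.2%) at an unadjusted p under 0.05; DESeq2 called 4, and edgeR with the library number as a block called 3, none of them a guide strand of the cluster.

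The comparison of 48 h with 24 h tests the difference between the exposures. miR-96-5p averaged 1380 ± 124 CPM at 48 h and 893 ± 178 CPM at 24 h (SD, n = 3), a log2 fold change of 0.63 ± 0.45 (SE; fold 1.55, 95% interval 0.781 to 3.06; edgeR adjusted p = 0.592, Benjamini-Hochberg). Its groups were separate, as were those of 10.4% of the tested miRNAs in that direction. miR-182-5p stood at 0.40 (-0.71 to 1.52; edgeR adjusted p = 0.767) and miR-183-5p at -0.18 (-1.28 to 0.93; 0.863) on the log2 scale. Here edgeR called 0 of 453 (0%), with 44 (9.71%) at an unadjusted p under 0.05, and DESeq2 called 6. Neither silica comparison with untreated cells is independent of the other, since they share the untreated libraries. Likewise, the comparisons of 24 h with untreated and of 48 h with 24 h share the 24 h libraries, so the separate groups of miR-96-5p in both are not independent.

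**Figure D2:**
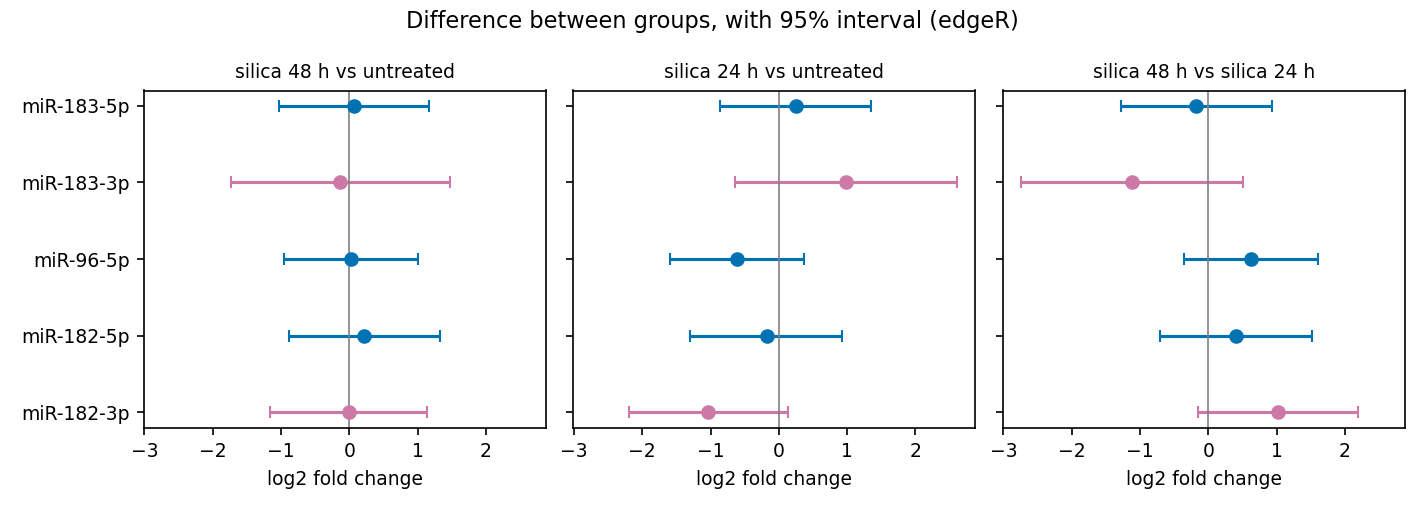
Log2 fold change of the tested arms of the cluster in the 3 comparisons, first-named group over the second, with the 95% interval from the edgeR fit; blue marks 5p guide strands and pink marks 3p arms. Every interval includes 0, and miR-182-3p comes nearest to leaving it, with -2.20 to 0.14 for 24 h against untreated.

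Ratios within a library do not depend on how libraries are scaled to each other. For each count of miR-183-5p there were 0.193, 0.474 and 0.0792 counts of miR-182-5p at 48 h, 0.113, 0.203 and 0.0943 at 24 h, and 0.123, 0.533 and 0.097 in untreated. Library 2 had the highest and library 3 the lowest of these ratios in each of the 3 groups. The groups overlapped in each comparison. The two-sided exact permutation p was 1 between 48 h and untreated, 0.6 between 24 h and untreated, and 0.7 between 48 h and 24 h, where 0.1 is the smallest that 3 libraries a group allow. Paired by library number, the ratio was lower at 24 h than in untreated in 3 of 3 pairs, with a mean log2 difference of -0.52 ± 0.76 (SD of the pairs; paired exact permutation p = 0.25, the smallest that 3 pairs allow), and lower at 48 h than in untreated in 2 of 3.

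For miR-96-5p over miR-183-5p the ratios were 0.214, 0.384 and 0.17 at 48 h, 0.135, 0.154 and 0.106 at 24 h, and 0.16, 0.428 and 0.237 in untreated. All 24 h libraries lay below all libraries of both other groups. The mean log2 ratio was -2.94 ± 0.28 at 24 h and -1.98 ± 0.71 in untreated (SD, n = 3), a difference of -0.96 (two-sided exact permutation test, p = 0.1), the smallest p that 3 against 3 can give. For 48 h against 24 h the difference was 0.89, also at an exact permutation p of 0.1, and for 48 h against untreated it was -0.07 (exact permutation p = 0.8). Over the 6 ratio tests the Benjamini-Hochberg adjusted p of the first pair was 0.3, so neither passed. Both of these use the same 24 h libraries. Paired by number, the ratio was lower at 24 h than in untreated in 3 of 3 pairs (paired exact permutation p = 0.25). At 48 h it was lower than in untreated in 2 of 3 pairs (paired exact permutation p = 0.75). Over the 8 paired tests of ratios and arms, added after seeing the data, the lowest Benjamini-Hochberg adjusted p was 0.667.

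**Figure D3:**
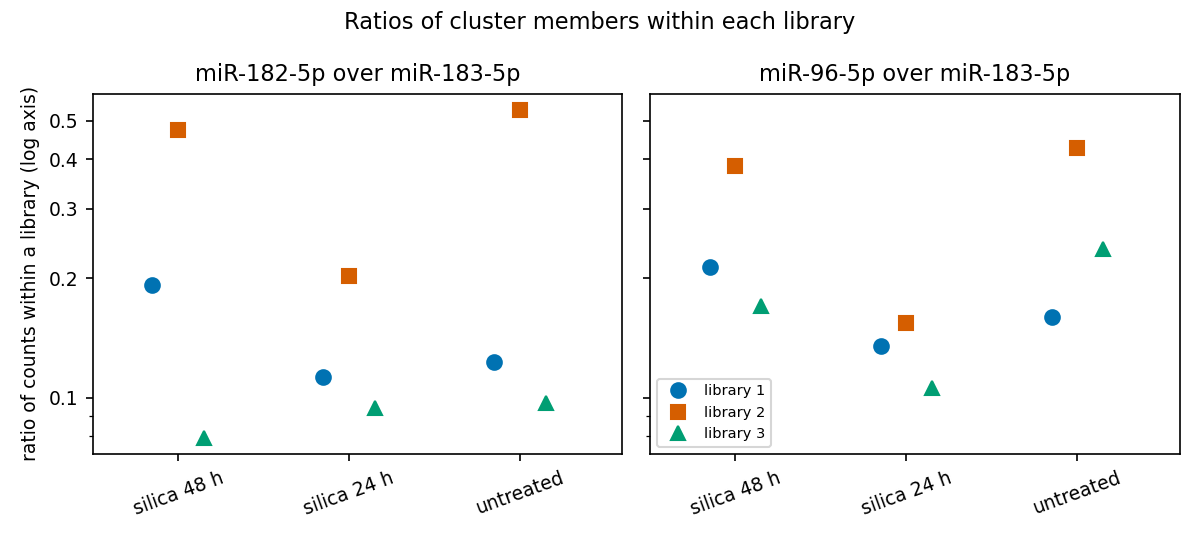
Counts of miR-182-5p (left) and miR-96-5p (right) per count of miR-183-5p in the same library, on a log axis; each point is a library, and its colour and shape give the library number. On the right the 24 h libraries, at 0.106 to 0.154, all lie below the other 6, while on the left library 2 is the highest of each group, at 0.474, 0.203 and 0.533.

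The 3 guide strands did not vary as 1 unit across the libraries, and how each pair was related depended on the groups and libraries taken. Over the 9 libraries the log2 CPM of miR-183-5p and miR-182-5p were related at r = -0.881 (rho = -0.800), and within groups, after each group's mean was taken off, at -0.908. Without the 48 h library 2 and the untreated library 2, which are the farthest from the median of miR-183-5p, r was -0.771. miR-183-5p and miR-96-5p were related at r = 0.115 (rho = 0.217), at 0.526 within groups and at 0.487 without the same 2 libraries. For miR-96-5p and miR-182-5p r was -0.013 (rho = 0.050), with -0.394 within groups and -0.263 without those 2. These values are given as a description, with no p, because libraries of the same number tended to deviate together and all CPM of a library share its scaling.

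**Figure D4:**
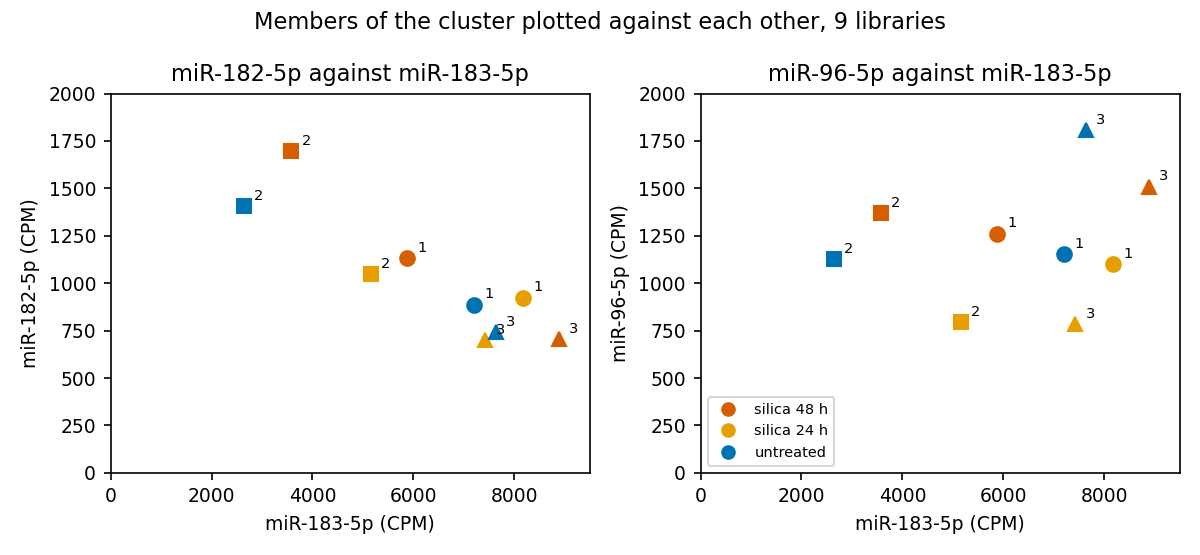
CPM of miR-182-5p (left) and of miR-96-5p (right) against miR-183-5p in the 9 libraries; colour gives the group and the figure beside a point its library number. On the left the libraries run from 2636 CPM of miR-183-5p with 1405 CPM of miR-182-5p (untreated library 2) to 8886 with 703 (48 h library 3), and on the right no such order is seen.

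Each guide strand was nearest in pattern to different miRNAs among the 287 other tested ones with a mean of at least 10 CPM, by Pearson's r of log2 CPM over the 9 libraries. Nearest to miR-183-5p were miR-132-5p (r = 0.982), miR-1983 (0.965), miR-1191a (0.944), miR-125b-1-3p (0.929) and miR-429-3p (0.916). Nearest to miR-96-5p were let-7f-2-3p (0.924), miR-141-3p (0.906), miR-182-3p (0.879), miR-22-3p (0.851) and miR-200c-3p (0.851). Nearest to miR-182-5p were miR-21a-5p (0.947), miR-652-5p (0.921), miR-301a-3p (0.917), miR-17-5p (0.900) and miR-125a-3p (0.900). Ranked in the same way for likeness to miR-183-5p, its cluster partners miR-96-5p and miR-182-5p stood at places 114 and 267 of 289.

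The opposite arms were scarce and are printed with bases 2 to 8 in capitals.
miR-183-3p: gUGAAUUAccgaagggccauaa
miR-96-3p: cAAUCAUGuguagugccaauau
miR-182-3p: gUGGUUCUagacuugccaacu
miR-183-3p and miR-182-3p averaged 26.2 and 27.3 CPM over the 9 libraries and miR-96-3p 0.776 CPM. The order of the first pair differed between groups: at 48 h miR-183-3p averaged 18.3 ± 13.6 CPM and miR-182-3p 32.8 ± 10.1 CPM, at 24 h 40 ± 9.59 CPM and 16.2 ± 3.7 CPM, and in untreated 20.1 ± 8.04 CPM and 33 ± 8.93 CPM, in the same order (SD, n = 3). The 3p arm made up 0.0491% to 1.07% of the reads of both arms for miR-183, and 1.25% to 5.48% for miR-182.

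miR-183-3p had 2.89, 28.4 and 23.7 CPM at 48 h, 36.7, 32.5 and 50.8 CPM at 24 h, and 19.4, 28.5 and 12.5 CPM in untreated. All 24 h libraries lay above all others, and the 48 h library 1 was far below the rest, with 10 counts. For 24 h against untreated the log2 fold change was 0.99 ± 0.74 (SE; 40 against 20.1 CPM; edgeR adjusted p = 0.654, Benjamini-Hochberg); groups were separate in that direction for 10.4% of the tested miRNAs.

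miR-182-3p had 36.1, 21.4 and 40.8 CPM at 48 h, 20.4, 13.6 and 14.5 CPM at 24 h, and 25.1, 31.1 and 42.7 CPM in untreated. As with miR-96-5p, all 24 h libraries lay below the rest, though by little, 20.4 CPM in the 24 h library 1 against 21.4 CPM in the 48 h library 2. The log2 fold change was -1.03 ± 0.53 (SE) for 24 h against untreated, with an unadjusted edgeR p of 0.0801 and an adjusted p of 0.543, and 1.02 ± 0.53 for 48 h against 24 h, with an edgeR adjusted p of 0.481 (Benjamini-Hochberg). It was the lowest p of any arm of the cluster in either comparison, and it did not pass. Groups were separate in the same directions for 6.18% of the tested miRNAs between 24 h and untreated and for 10.4% between 48 h and 24 h.

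miR-96-3p had 0, 25 and 6 counts at 48 h, 0 in each library at 24 h, and 5, 12 and 0 in untreated, too few to be tested. Against a floor of 3 counts over the 24 h group, 17 untreated counts stood 4.29-fold and 31 counts at 48 h 7.05-fold above it, after library scaling. Library 2 held most of these counts: without it, 5 untreated counts stood 2.02-fold and 6 counts at 48 h 3.03-fold above the floor. Only the 0 at 24 h is given a counting limit here, and the other counts are taken without their counting error. These folds are therefore not lower bounds, and 1 library of each of the other groups was at 0 as well.

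The share of the opposite arm overlapped between groups in each comparison. The mean log2 of 3p over 5p counts was -7.43 ± 0.32 at 24 h and -8.10 ± 1.41 in untreated for miR-183 (SD, n = 3; two-sided exact permutation p = 0.5), and -5.77 ± 0.42 at 24 h and -4.91 ± 0.72 in untreated for miR-182 (exact permutation p = 0.2). Over the 6 such tests, 3 comparisons for each of these 2 hairpins, the lowest Benjamini-Hochberg adjusted p was 0.72. Within pairs of the same library number, the ratio for miR-182 was lower at 24 h than in untreated in 3 of 3 pairs, with miR-182-3p at 2.16%, 1.28% and 2.03% of both arms at 24 h and 2.76%, 2.16% and 5.45% in untreated, in libraries 1, 2 and 3. A paired exact permutation test, which cannot go below 0.25 with 3 pairs, gave p = 0.25. For miR-183 it was lower in 1 of 3 pairs.

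The deposited tables also hold rows for the families mir-183, mir-96 and mir-182 of Rfam, a catalogue that groups related hairpins of many species, separate from the mature miRNAs. The family mir-182 was large relative to its guide strand. It held 1.2, 0.536 and 2.72 reads for each read of miR-182-5p at 48 h, 1.59, 0.905 and 1.48 at 24 h, and 1.07, 0.922 and 3.73 in untreated, and exceeded it in 6 of 9 libraries. The family mir-183 held only 0.0369 to 0.0854 reads per read of miR-183-5p over the 9 libraries. The family mir-96 held 0.0635 to 0.163 per read of miR-96-5p in 8 libraries and 0.00168 in the 48 h library 2, where it had 22 reads beside 13086 of the guide strand. The sources used here do not state how reads were divided between the mature and the Rfam rows, and whether the Rfam reads come from these mouse hairpins was not tested.

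**Figure D5:**
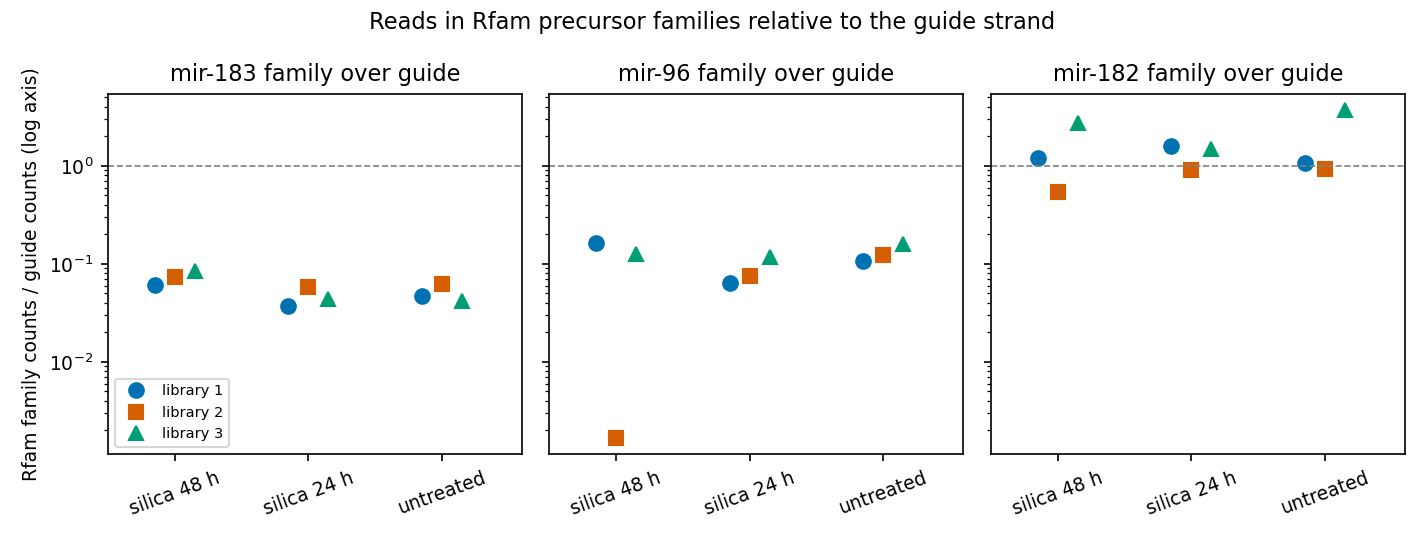
Counts of the Rfam precursor family divided by counts of the guide strand of the same name, per library, on a log axis; the dashed line marks equal counts. The mir-182 family lies around that line, at 0.536 to 3.73, and the mir-183 family well below it, at 0.0369 to 0.0854.

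Adding the family reads to the guide strand, a choice made after these values were seen, changed how the cluster members related to each other. The sum for miR-182 was 2490, 2603 and 2614 CPM at 48 h, 2397, 1998 and 1736 CPM at 24 h, and 1840, 2699 and 3502 CPM in untreated. It stood above the sum for miR-96 in 9 of 9 libraries and below that for miR-183 in 9 of 9. Between miR-183 and miR-182 r was then -0.143 (rho = -0.033) in place of -0.881, and between miR-96 and miR-182 it was 0.834 (rho = 0.700) in place of -0.013, over the same 9 libraries and again as a description. Without the 48 h library 2 and the untreated library 2, r was 0.297 and 0.865.

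Among the families, mir-96 had 62, 1.18 and 72.6 RPM (scaled to 1000000 of all counted reads of a library) at 48 h, 24.8, 24.9 and 23.2 RPM at 24 h, and 44.1, 56.4 and 113 RPM in untreated. As for miR-96-5p, all 24 h libraries lay below all untreated ones, with a log2 difference of -1.43 and a two-sided exact permutation p of 0.1, the smallest possible (adjusted over 9 family tests, 0.72). Of 78 families with at least 10 counts in 3 libraries, 8.97% were separate in that direction. Neither mir-183, at 105 ± 22.8 RPM at 24 h and 105 ± 32.6 in untreated, nor mir-182, at 393 ± 132 RPM at 24 h and 650 ± 387 RPM in untreated (SD, n = 3), had separate groups in that comparison.

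Other miRNAs bear on the cluster by position or by tissue. Within 2 Mb of the miR-183 hairpin lie Mir129-1, Mir335, Mir29a and Mir29b-1, with 7 mature arms of which 5 were tested. The most abundant was miR-29a-3p, which represses collagen genes, at 3888 CPM; its r with miR-183-5p was -0.765 and with miR-182-5p 0.725. None of the 5 passed the test in any comparison.

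The list of epithelial miRNAs, of which 7 of 8 were tested, had 4 log2 fold changes above and 3 below 0 between 48 h and untreated (median 0.07, against 0.03 over all tested miRNAs, of which 52.5% were above 0). Between 24 h and untreated 2 were above and 5 below (-0.54, against -0.07, with 46.6% of all above), and between 48 h and 24 h 5 were above and 2 below (0.69, against 0.14, with 54.1% of all above), with 0 passing in each. Its summed level was 227 to 333 CPM at 48 h, 187 to 287 CPM at 24 h and 211 to 307 CPM in untreated, well under that of the cluster. Its 5 members of the miR-200 family differed in their likeness to the cluster: r over the 9 libraries with miR-183-5p was 0.916 for miR-429-3p, -0.045 for miR-200c-3p, -0.122 for miR-141-3p, -0.222 for miR-200a-3p and -0.376 for miR-200b-3p, and with miR-96-5p it was 0.042, 0.851, 0.906, 0.649 and 0.677 in the same order. The leading members miR-429-3p, miR-200c-3p and miR-203-3p averaged 116, 77.6 and 18.2 CPM; miR-205-5p, of stratified epithelia, averaged 1.08 CPM and was not tested. Between 24 h and untreated the groups of 3 members were separate, 2 lower and 1 higher at 24 h. Of all tested miRNAs, 6.18% were separate and lower there and 10.4% separate and higher. miR-200c-3p stood at 54.9 ± 14.2 CPM at 24 h and 80.1 ± 9.72 CPM in untreated, and miR-141-3p at 3.19 ± 1.42 CPM at 24 h and 14.3 ± 10.8 CPM in untreated (SD, n = 3). The one higher was miR-375-3p, a miRNA of endocrine cells, at 10.2 ± 5.51 CPM at 24 h and 2.29 ± 0.435 CPM in untreated, a log2 fold change of 2.13 (edgeR unadjusted p = 0.0266, adjusted p = 0.437). At 48 h, with 8.26 ± 4.8 CPM, it was also separate and higher than in untreated, as were 2.21% of all tested miRNAs. The log2 fold change there was 1.83 (edgeR unadjusted p = 0.0481, adjusted p = 0.997). Between 48 h and 24 h the groups of 2 members were separate, both higher at 48 h, which held for 10.4% of all tested miRNAs. miR-429-3p stood at 126 ± 32.3 CPM at 24 h and 123 ± 68 CPM in untreated.

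For sensory and neural miRNAs, 7 of 8 tested, the counts above and below 0 were 1 and 6 between 48 h and untreated (median -0.56), 3 and 4 between 24 h and untreated (-0.08), and 4 and 3 between 48 h and 24 h (0.10), with 0 passing. Over all tested miRNAs the medians were 0.03, -0.07 and 0.14 in the same order, with 52.5%, 46.6% and 54.1% above 0. The sensory and neural list summed to 576 to 755 CPM at 48 h, 468 to 805 CPM at 24 h and 520 to 904 CPM in untreated. The leading members were miR-128-3p at 461 CPM, miR-9-5p at 87.3 CPM and miR-138-5p at 46.1 CPM. Between 24 h and untreated 2 members were separate and lower and 1 separate and higher (6.18% and 10.4% of all tested miRNAs). The largest change was that of miR-219a-5p, at 0.11 ± 0.191 CPM at 24 h and 14.6 ± 17.7 CPM in untreated (SD, n = 3), a log2 fold change of -6.39. It was called there by DESeq2, by edgeR with the block and without the filter, but not in the main fit. The myeloid list had 5 above and 2 below between 48 h and untreated (median 0.20), 2 and 5 between 24 h and untreated (-0.24), and 5 and 2 between 48 h and 24 h (0.15), with 0 of 7 passing. Its sum, mostly miR-146a-5p and miR-21a-5p, was 86045 to 108549 CPM at 48 h, 71502 to 84177 CPM at 24 h and 75738 to 105765 CPM in untreated. That sum at 24 h lay below 48 h by little and overlapped untreated. Between 48 h and 24 h 0 of the 7 tested members were separate, against 10.4% of all tested miRNAs in each direction. miR-223-3p and miR-342-3p were higher at 24 h, with log2 fold changes of -0.65 and -0.41 for 48 h against 24 h. The part of this sum in the values of the cluster was not tested.

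The summed level of miRNAs of serum, liver and red blood cells, most of it from miR-122-5p and miR-451a, was highest at 24 h. It was 1494 to 1965 CPM at 48 h, 2397 to 6158 CPM at 24 h and 736 to 2189 CPM in untreated. Of its 6 members 5 were tested, with 1 above and 4 below 0 between 48 h and untreated (median -0.02), 4 and 1 between 24 h and untreated (0.36), and 0 and 5 between 48 h and 24 h (-0.89), and 0 passed; miR-144-3p was not tested. Over all tested miRNAs the medians were 0.03, -0.07 and 0.14 in the same order, with 52.5%, 46.6% and 54.1% above 0. The leading member of the list, miR-122-5p, made chiefly by hepatocytes, stood at 1820 ± 515 CPM at 24 h and 825 ± 528 CPM in untreated (SD, n = 3). It was followed by the red cell miRNA miR-451a, at 1953 ± 1290 CPM at 24 h and 444 ± 260 CPM in untreated, and by miR-192-5p, at 254 ± 56.6 CPM at 24 h and 198 ± 33 CPM in untreated. In the rest of the list, miR-194-5p stood at 133 ± 69.5 CPM at 24 h and 114 ± 21.6 CPM in untreated. The other members were not higher at 24 h: miR-486a-5p stood at 5.85 ± 1.22 CPM there and 6.38 ± 3.66 CPM in untreated, and miR-144-3p at 0.276 and 0.417 CPM. Over the 9 libraries miR-122-5p was related to miR-183-5p at r = 0.876, to miR-96-5p at -0.270 and to miR-182-5p at -0.796, as a description; the part of such RNA in the values of the cluster was not tested.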

How the data were processed

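Small RNA was measured in 9 libraries of exosomes, 3 each from cells with silica for 48 h, with silica for 24 h, and untreated. Per the submitters' processing notes the authors used Trim Galore, Bowtie, HTSeq and the build mm10, with no versions. The deposited tables give, per the file headers, the count of reads per small RNA in 14 RNA classes. The deposited column named TPM is RPM, the count scaled to 1000000 of all counted reads, and was only checked against the counts (within 0.0050). An unlisted mature miRNA was taken as 0, since mature rows start at 1 count.

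Mature counts were filtered with edgeR 4.0.16 (filterByExpr, minimum count 10; 453 of 1101 kept), scaled by TMM (factors 0.829 to 1.16) and tested by quasi-likelihood in 1 fit of the 9 libraries without a block (6 residual degrees of freedom), with Benjamini-Hochberg adjustment at 0.05 (R 4.3.3). DESeq2 1.42.0 and limma 3.58.1 were alternatives. The edgeR step was also run on simulated data, with a smaller spread than in these libraries and larger changes than those of the guide strands. That run therefore does not tell which changes were detectable here. Log2 CPM used a prior count of 2, and ratios 0.5 added to each count. Ratios, arms and families were compared by exact permutation tests, and ratios and arms also, added after seeing the data, in pairs of the same library number (scipy 1.17.1). Libraries held 2158418 to 8331451 mature counts, where 3 counts are 1.39 to 0.36 CPM.

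Deviations of same-numbered libraries from their group means were correlated at 0.152, 0.636 and 0.315 for numbers 1, 2 and 3 between 48 h and untreated, and at 0.136, 0.439 and 0.149 between 24 h and untreated, all above 0.1, but at -0.0679, 0.289 and 0.253 between 48 h and 24 h. Libraries of different numbers ran from -0.532 to 0.36 between 48 h and untreated and from -0.301 to 0.16 between 24 h and untreated. The highest of each, library 3 of the silica group with untreated library 1, exceeded the value for number 3 with number 3. This measure comes from the data and not the labels, and it does not settle whether the numbers mark pairs.

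Named miRNAs are the guide strands, their opposite arms, the 5 nearest in pattern, miRNAs sharing bases 2 to 7, hairpins within 2 Mb, and the leading 3 of each list. Beyond this, miR-223-3p, miR-142a-3p, miR-342-3p, miR-511-3p, miR-200a-3p, miR-200b-3p, miR-141-3p, miR-375-3p, miR-205-5p, miR-219a-5p, miR-194-5p, miR-486a-5p and miR-144-3p were named after their values were seen. The members and lists were chosen with earlier results of these data known.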

Additional observations from a re-analysis of the deposited data

How the results depend on the processing

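Over 20 other settings each, the 9 log2 fold changes of the guide strands gave 180 values, of which 158 kept the sign, 22 turned it and 0 passed (lowest adjusted p 0.425). miR-96-5p kept its sign throughout for 24 h against untreated (-0.85 to -0.43) and for 48 h against 24 h (0.52 to 0.85), as did miR-182-5p for 48 h against 24 h (0.02 to 0.69). With the replicate block miR-96-5p stood at -0.59 for 24 h against untreated (adjusted p 0.495); the block changed no call of a guide strand. For 48 h against untreated, leaving out single libraries gave -0.39 to 0.34 for miR-183-5p (turned without the untreated library 2 or the 48 h library 3), -0.13 to 0.21 for miR-96-5p (without the 24 h library 1 or 3, the untreated library 1 or 2 or the 48 h library 3) and -0.17 to 0.55 for miR-182-5p (without the untreated library 3 or the 48 h library 2). For 24 h against untreated it gave -0.07 to 0.42 for miR-183-5p and -0.44 to 0.17 for miR-182-5p, both turned without the untreated library 2, and for 48 h against 24 h -0.58 to 0.08 for miR-183-5p, turned without the 48 h library 2. Without both libraries numbered 2 of 48 h and untreated, miR-183-5p stood at -0.01 between 48 h and untreated, -0.08 between 24 h and untreated and 0.07 between 48 h and 24 h, miR-96-5p at -0.10 for 48 h against untreated and miR-182-5p at 0.15 for 24 h against untreated. Between 48 h and untreated miR-96-5p was -0.03 with mature totals, -0.03 with only these 2 groups and -0.02 with the Rfam reads added, where miR-182-5p was -0.05. For 48 h against 24 h miR-183-5p was 0.01 with totals of all counted reads, a scaling that moved the median of all tested miRNAs by 0.23 there, by 0.11 between 48 h and untreated and by -0.14 between 24 h and untreated; upper-quartile factors moved it by -0.12, 0.06 and 0.12.

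The log2 ratio of miR-96-5p to miR-183-5p kept its sign for 24 h against untreated (-1.29 to -0.58) and for 48 h against 24 h (0.55 to 1.14), and for 48 h against untreated it ran from -0.41 to 0.31 when single libraries were left out (turned without the 48 h library 1 or 3 or the untreated library 2). That of miR-182-5p to miR-183-5p ran from -0.59 to 0.82 for 48 h against untreated (turned without the 48 h library 2 or the untreated library 1 or 3), from -0.99 to 0.24 for 24 h against untreated (without the untreated library 2) and from -0.07 to 1.22 for 48 h against 24 h (without the 48 h library 2); without both libraries numbered 2 the last pair stood at 0.24 and -0.07. Pairing by library number, added after seeing the data, left both mean ratios as they were (-0.52 and -0.96 for 24 h against untreated, both at a paired exact permutation p of 0.25, and 0.06 and -0.07 between 48 h and untreated). Calls over all miRNAs were 0 in each comparison. They became 1, 4 and 6 with DESeq2 (48 h against untreated, 24 h against untreated, 48 h against 24 h). In the same order they became 1, 7 and 16 without a filter and 0, 3 and 3 with the block, though whether the numbers mark pairs is not settled. For 24 h against untreated there was 1 with upper-quartile factors and 1 with only these groups, and 0 to 1 when single libraries were left out, also for 48 h against 24 h. The causes were not tested.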
